A study of Mus musculus with 32 samples.

Results

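The genes described here encode subunits of the mitochondrial respiratory chain and of ATP synthase. They were chosen by symbol alone (Ndufa, Ndufb, Ndufc, Ndufs, Ndufv, Uqcr, Sdha to Sdhd, Atp5 and the lettered Cox genes), a rule that reads names and no values, and 90 of the 18194 genes that had a probe set of their own matched. Each gene was read from its single-symbol probe set with the highest mean, and 8 further matching names, which shared their probe sets with other genes, are not described. Of the 90, 36 belong by name to complex I, 4 to complex II, 8 to complex III, 17 to complex IV and 17 to complex V, and the Ndufa prefix also took in 8 assembly factors of complex I (Ndufaf genes), which build the complex and are not part of it. Of the 90, 86 passed the filter on dim probe sets (a mean of at least 5.78 on the log2 scale) and were tested among 11228 genes.

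The samples were 32 lymphomas of Eµ-myc transgenic mice, in which the immunoglobulin heavy chain enhancer drives Myc in B lineage cells, and all carried this transgene. The labels form 1 group without controls and give no ages or treatments, so the measurements describe how tumours, named by their number in the labels, differed from each other. RNA came from tissue or from dissociated cells, which the labels do not assign to tumours, and whether any tumours shared a mouse is not stated. The p-values treat tumours as independent. Of the 5 B lineage markers measured, Cd79b lay between 11.11 and 12.63 over the 32 tumours, Blnk between 10.87 and 12.62 and Cd79a between 9.37 and 11.63. Pax5 (7.16 to 9.04) and Ebf1 (6.24 to 10.66) varied more or were dimmer, and all 5 were above the filter. Other cells were present in varying amounts. The mean of 10 muscle markers was 7.18 to 8.87 in tumours 3, 13, 20, 28 and 31 and 5.01 to 6.04 in the other 27. The mean of 6 salivary gland markers was 10.23 to 13.92 in 11 tumours and 4.44 to 5.20 in the rest, and the mean of 9 T cell markers was 9.24 in tumour 24 and 8.78 in tumour 2, and no other tumour exceeded 7.66. In such bulk samples, fewer cells of a type and less RNA per cell cannot be told apart.

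Complex I takes electrons from NADH and complex II from succinate. Both pass them through ubiquinone to complex III and on by cytochrome c to complex IV, which reduces oxygen. Complexes I, III and IV pump protons across the inner mitochondrial membrane, and ATP synthase (complex V) uses their return to make ATP. A few subunits of complexes I, III, IV and V come from mitochondrial DNA, and all those measured here are nuclear. Some complex IV subunits exist as isoforms for heart and skeletal muscle, brown fat, testis or lung. Myc is known to drive genes of mitochondrial biogenesis in many cell types.

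The subunit genes varied less between tumours than genes in general. The median SD of the 86 members was 0.18 on the log2 scale, against 0.28 over all 11228 genes. The genes were not matched for signal level, and the members with the smallest SDs had bright probe sets. The smallest SDs belonged to Cox4i1, the common isoform of a regulatory complex IV subunit (12.48 to 12.84, median 12.71, SD 0.07, n = 32), and to Atp5g3, one of several genes for the same c subunit of the ATP synthase rotor (12.97 to 13.23, median 13.12, SD 0.07). Cox5a, another complex IV subunit (SD 0.08), Ndufa1 of complex I (SD 0.09) and Atp5c1, the gamma subunit that turns inside ATP synthase (SD 0.09), came next. In these genes the 32 tumours were spread no wider than the hybridisation controls, spiked RNAs that should be equal on every array. The SDs of those 9 controls ran from 0.07 to 0.22. Of the 86 members, 22 had an SD above 0.22, whereas 69.5% of all genes did. The count depends on the controls, whose highest SD fell to 0.17 without tumour 9, and 43 members then lay above it, against 81.95% of all genes. It was 41 without the 11 tumours with salivary markers (79.33% of all genes) and 51 with SDs from the median absolute deviation (85.43%).

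The classes differed in spread. Median SDs were 0.18 in complex I, 0.20 in complex II, 0.16 in complex III, 0.12 in complex IV and 0.16 in complex V. The 8 complex I assembly factors were the most variable class, with a median SD of 0.29, and 6 of them lay above the controls. Ndufaf3 had the largest SD among them (0.41), with a lowest value of 7.27 in tumour 30, a median of 8.28 and its highest value in tumour 31. Ndufaf6 (7.79 to 9.25, median 8.82, SD 0.33), Ndufaf2 (6.93 to 8.26, median 7.85, SD 0.31) and Ndufaf4 (9.44 to 11.06, median 10.20, SD 0.30) followed. Among true complex I subunits the accessory genes Ndufb1 (7.64 to 9.41, median 8.47, SD 0.38), Ndufb2 (9.74 to 11.26, median 10.69, SD 0.33) and Ndufc1 (10.80 to 12.38, median 11.59, SD 0.31) varied most. Cox7c of complex IV ran from 7.63 to 9.19 with a median of 8.34 (SD 0.33).

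**Figure D1:**
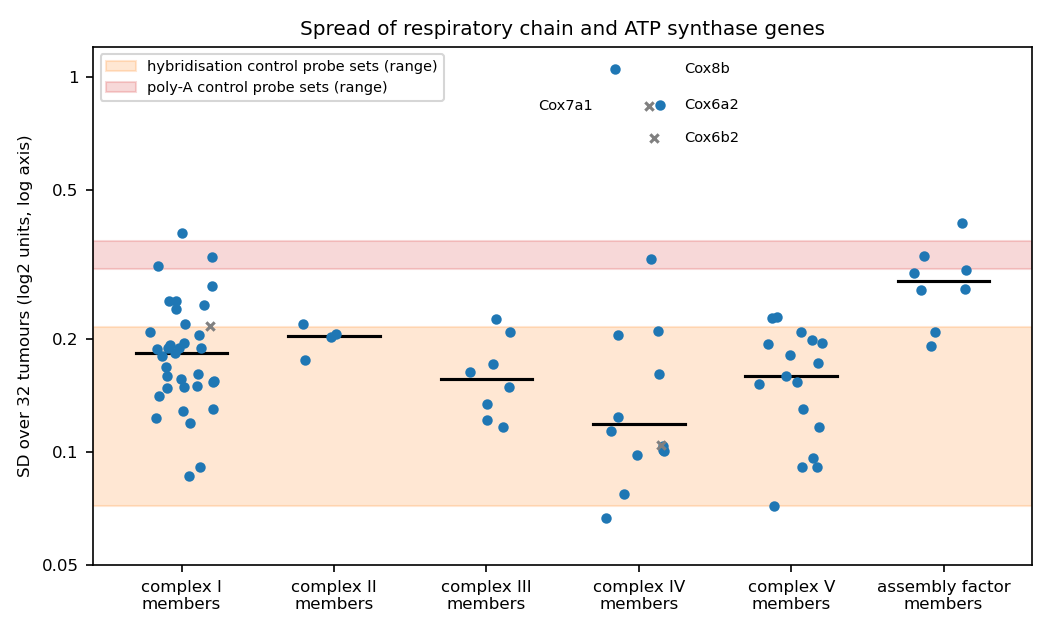
SD over 32 tumours (log2 units, log axis) of each member by class, with the median of tested members as a bar. Circles are tested members, crosses are the 4 members below the filter, and bands are the ranges of the control probe sets. Complex IV holds the smallest values (Cox4i1, 0.07) and the 4 above 0.5 (Cox8b, Cox6a2, Cox7a1 and Cox6b2).

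The complex IV genes with the largest spread were the tissue isoforms, and each was high in a few tumours only. Cox8b, an isoform of muscle and brown fat, had a median of 5.47 and reached 9.71 in tumour 13, 8.78 in tumour 31, 7.11 in tumour 20 and 6.90 in tumour 12. Its lowest value was 4.96 (SD 1.05). Cox7a1, the heart and muscle isoform, peaked in tumours 13 (8.30), 31 (7.38) and 12 (6.99), with a median of 5.32, a lowest value of 4.06 and an SD of 0.84. Tumours 13 and 31 thus stood apart in both genes. Cox6a2, the heart and muscle form of subunit 6a, had another order, with 11.62 in tumour 3, 9.86 in tumour 7, 9.18 in tumour 28 and 9.06 in tumour 31, against a median of 8.07 and a lowest value of 7.42 (SD 0.84). A second probe set of Cox6a2 followed the first (r = 0.98). Cox6b2, the testis isoform, was 7.88 in tumour 31 and 6.81 in tumour 13, with a median of 5.23 and a lowest value of 4.71 (SD 0.69). Cox7a1 and Cox6b2 lay below the filter on their means. Cox8b (mean 5.85) passed it only through the tumours in which it was high, and fell below it without tumour 13 or without tumour 31. The lung isoform Cox4i2 (6.16 to 6.90, SD 0.12) and Cox8c (7.85 to 8.31, SD 0.11) showed no such tumours.

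**Figure D2:**
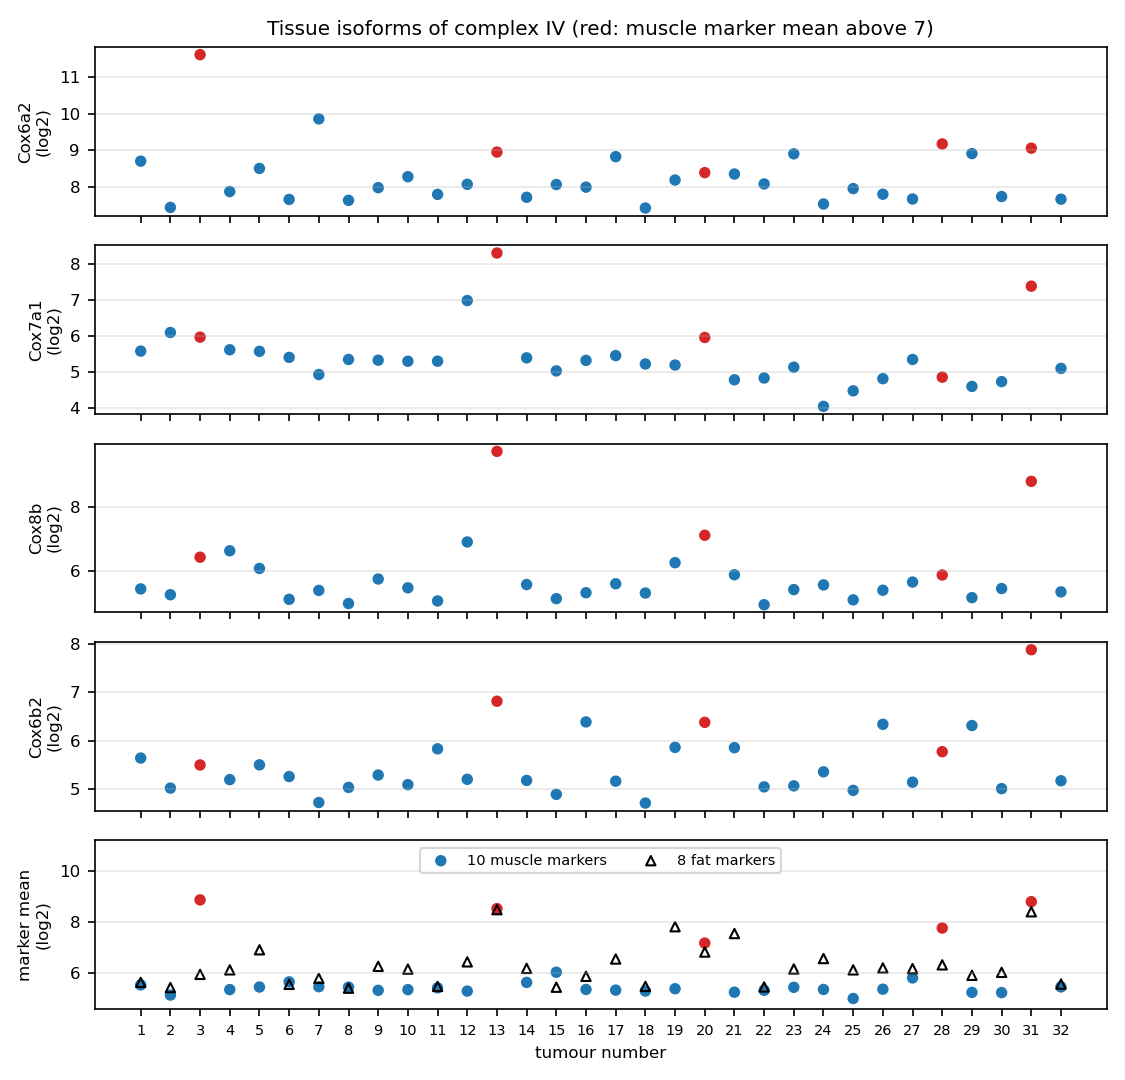
Log2 values of 4 complex IV isoforms in each of 32 tumours, above the mean of 10 muscle markers (circles) and 8 fat markers (triangles). Red marks the 5 tumours with a muscle marker mean above 7. Cox8b and Cox7a1 peak in tumours 13 and 31, where both marker means are high, and Cox6a2 peaks in tumours 3 and 7, of which 7 has a muscle mean of 5.47.

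These tumours partly coincided with markers of other tissues. Tumours 3, 13, 28 and 31 belong to the 5 with high muscle markers. Tumour 7 does not, since its muscle marker mean was 5.47, within the range of the 27 low tumours. The mean of 8 fat markers was highest in tumours 13 (8.49) and 31 (8.41), and the brown fat genes Cidea (8.83) and Ucp1 (10.16) had their highest values in tumours 13 and 31 in turn, with medians of 4.40 and 4.91. Tumours 19 (7.82) and 21 (7.56) came next in the fat mean, and other fat markers peaked elsewhere, Adipoq, Cidec and Retn in tumour 19 and Fabp4 in tumour 30. In the 5 tumours with muscle markers Cox6a2 ran from 8.39 to 11.62 with a median of 9.06, and in the other 27 from 7.42 to 9.86 with a median of 7.98. Cox8b ran from 5.88 to 9.71 (median 7.11) against 4.96 to 6.90 (median 5.43), and Cox7a1 from 4.87 to 8.30 (median 5.97) against 4.06 to 6.99 (median 5.31). All 3 overlapped. Because the muscle score fell into these clusters, its correlation with an isoform was taken within the 27 low tumours, whose muscle signal varied little. There r was 0.04 for Cox6a2, 0.08 for Cox7a1 and -0.04 for Cox8b (raw p = 0.846, 0.679 and 0.836, adjusted p = 0.867 for each, permutation tests). Without tumours 2 and 24 the values of Cox7a1 itself fell into clusters, and r was taken within the tumours with low Cox7a1. That set differs from these 27. It includes muscle-marker tumours 3, 20 and 28 and leaves out tumour 12, besides 2 and 24. In it the relation of Cox7a1 passed (r = 0.49, adjusted p = 0.0393, permutation test). Cox8b followed the fat score over all 32 tumours (r = 0.83, rho = 0.86, two-sided permutation test with a raw p of 1e-05, which is the lowest value that 100000 resamples allow, and adjusted p = 0.00016), and r was 0.57 without tumours 13 and 31. Cox7a1 passed as well (r = 0.56, raw p = 0.00329, adjusted p = 0.0209, two-sided permutation test, rho = 0.23), but r was -0.00149 without tumours 13 and 31, so that the relation rests on them. Adjusted values are over the 16 relations computed. What part other tissues had in the isoform levels was not tested.

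The members moved together across tumours. Over 3655 pairs the median Pearson r was 0.23 and 79.6% of pairs were positive, whereas the median over all pairs of tested genes was 0.01. Taken over all classes, sharing a complex made little difference, since pairs of the same class had a median r of 0.22 and pairs of different classes 0.24. Complex I gave 595 of the 884 same-class pairs, with a median of 0.21. The other medians ran from 0.10 within complex IV to 0.35 within the assembly factors. Sharing a chromosome went with higher values. The 181 pairs on one chromosome had a median r of 0.38, against 0.23 for other pairs, and it was 0.36 where the complexes differed. Over all tested genes on one chromosome the median was 0.04. All r between members are descriptions over the same 32 arrays.

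The 3 highest pairs combined 3 complexes on chromosome 15. They were Atp5g2, another c subunit gene, with the complex IV gene Cox6c (r = 0.93), Cox6c with the complex I gene Ndufb9 (r = 0.92), and Atp5g2 with Ndufb9 (r = 0.87). The complex I genes Ndufa9 and Ndufb2, both on chromosome 6, followed at 0.84, as did Atp5g1 and Ndufb2 (0.84), which lie on different chromosomes. Of the 25 highest pairs, 11 shared a chromosome, against 4.95% of all pairs. The lowest pairs joined Ndufv3, an accessory subunit of complex I on chromosome 17, to Cox6c (r = -0.70) and Atp5g2 (r = -0.63). Ndufv3 was 10.30 to 10.66 in the 5 tumours that were highest for chromosome 15 and 10.51 to 11.16 in the other 27. Within those 27 tumours the r of these pairs were 0.71, 0.57 and 0.48 for the chromosome 15 genes and -0.28 and -0.12 for Ndufv3. A second probe set gave the same pattern for most members (median r = 0.82 over 49 members, 0.75 over all genes). It did not for Ndufa10 (r = -0.22), Atp5c1 (0.09) and Uqcrq (0.10), whose values depend on the probe set chosen.

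The mean deviation of the 78 tested subunits from their own means was lowest in tumour 25 (-0.18, with 5 of 78 above their mean) and highest in tumour 13 (0.19, with 68 of 78 above). Without the isoforms Cox6a2 and Cox8b tumour 13 was still highest, at 0.14. The mean of complex IV in tumour 13, 0.38 with these isoforms, was 0.07 without them. Tumours 9 (-0.16), 24 (-0.15), 8 (-0.14), 30 (-0.13) and 2 (-0.13) were also low. Tumour 25 had the highest stroma score and tumour 24 the highest T cell score, and the part of other cells in these means was not tested. Complexes I and V deviated alike over the tumours (r = 0.87 between their means), and complex IV was least like the assembly factors (r = 0.44). The assembly factors dropped furthest in tumour 30, to a mean of -0.49.

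**Figure D3:**
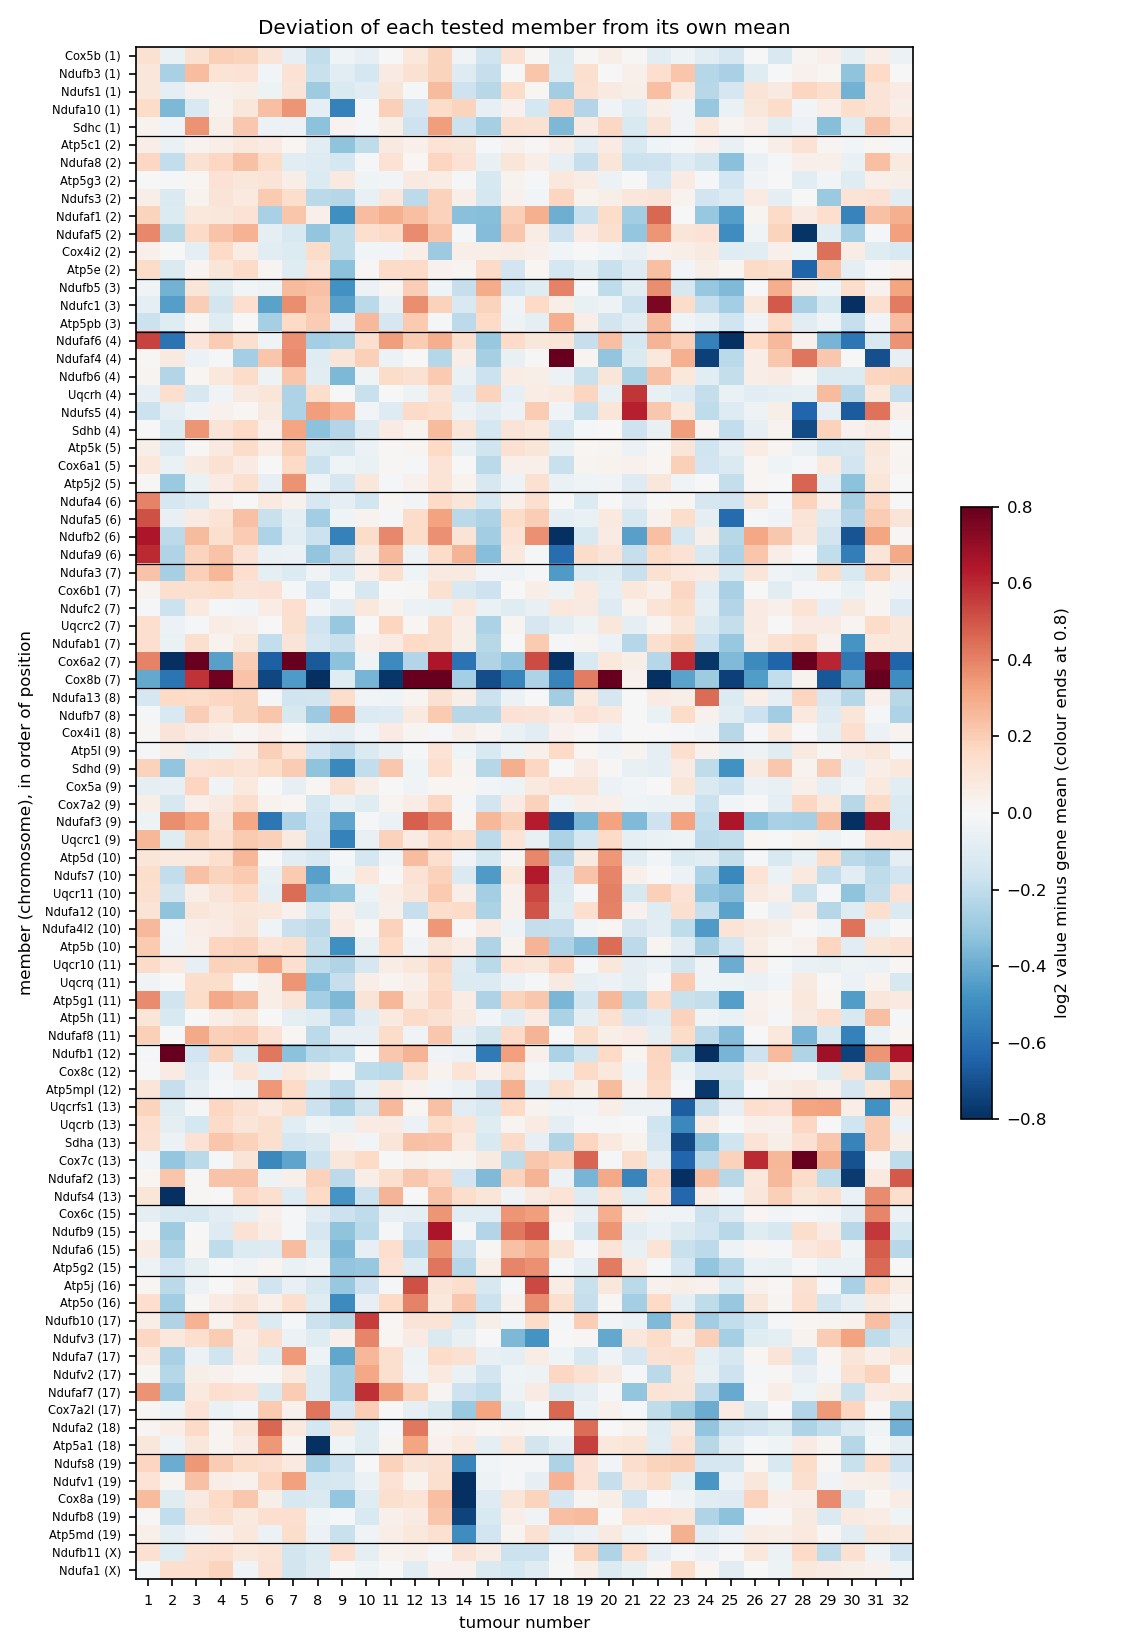
Log2 value minus gene mean for the 86 tested members, in order of chromosome and position, in 32 tumours (red above the gene's mean, blue below, colours ending at 0.8). Blocks of one colour within a chromosome appear in tumour 14 for chromosome 19, tumour 23 for chromosome 13, tumour 1 for chromosome 6, and tumours 13, 16, 17, 20 and 31 for chromosome 15.

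Many members, but not all, rose with the level of the chromosome on which they lie. The level of a chromosome in a tumour was the median, over its tested genes without members, of the value minus the gene's mean. Such a level is an expression measure, and DNA copy number was not measured. Chromosome 15 was at 0.22 to 0.30 in tumours 13, 16, 17, 20 and 31, and none of the other 27 exceeded 0.03. Of these 5, tumours 13, 20 and 31 also had high muscle markers, and without the 5 muscle-marker tumours 3 members on chromosome 15 still rose with its level. Cox6c was 12.81 to 12.91 in those 5 tumours and 12.32 to 12.56 in the other 27. Atp5g2 was 12.30 to 12.38 against 11.61 to 12.05, and Ndufb9 11.54 to 11.84 against 10.87 to 11.33. The 5 tumours did not overlap with the others in these 3 genes. In the complex I gene Ndufa6 they did, at 11.01 to 11.39 against 10.55 to 11.15. Here and on the chromosomes below, the share of other genes without such an overlap was not computed. All 4 tested members on chromosome 15 rose with its level (limma, slopes per SD of the level of 0.15 ± 0.02 for Cox6c, 0.19 ± 0.02 for Atp5g2, 0.22 ± 0.02 for Ndufb9 and 0.13 ± 0.03 for Ndufa6, ± SE, n = 32, adjusted p from 1.07e-07 to 0.00157), as did 39.7% of the other genes of chromosome 15 and 2.61% of genes elsewhere.

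Chromosome 3 was at 0.17 to 0.27 in 9 tumours (7, 8, 10, 12, 15, 18, 22, 27 and 32) and below 0 in the other 23. Atp5pb, which encodes the b subunit of the stalk that holds ATP synthase in place, was 12.69 to 12.83 in these 9 and 12.27 to 12.59 in the 23, without overlap. The complex I genes Ndufb5 (11.54 to 11.98 against 11.10 to 11.73) and Ndufc1 (11.40 to 12.38 against 10.80 to 11.82) overlapped. All 3 tested members rose with the chromosome 3 level, Atp5pb by 0.13 ± 0.02, Ndufb5 by 0.17 ± 0.03 and Ndufc1 by 0.19 ± 0.05 per SD (± SE, limma, adjusted p from 5.84e-06 to 0.00658), as did 48.8% of other genes of chromosome 3 and 1.05% of genes elsewhere. Within the 23 tumours r with the level was -0.21 for Atp5pb, 0.37 for Ndufb5 and -0.08 for Ndufc1. Chromosome 12 was at 0.22 to 0.34 in tumours 6, 16, 20 and 32, and no other tumour exceeded 0.01. There Atp5mpl, a small membrane subunit of ATP synthase, was 12.45 to 12.55, against 11.43 to 12.36, and rose by 0.14 ± 0.03 per SD (adjusted p = 0.00247, background 29.9% of other genes of chromosome 12 and 0.0838% elsewhere). Without the 11 tumours with salivary markers that call was lost, and without tumour 2 there were 2 calls. Within the 28 lower tumours r of Atp5mpl with the level was 0.79, with tumour 24 lowest in both. Ndufb1 (0.18 ± 0.06, adjusted p = 0.196) and Cox8c (0.03 ± 0.02, adjusted p = 0.656) did not pass when adjusted over all genes tested against this level.

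Chromosome 18 was at 0.28 to 0.34 in tumours 6, 12 and 19, and none of the other 29 exceeded 0.06. There Atp5a1 was 12.80 to 13.03 against 11.55 to 12.60, and Ndufa2 was 11.94 to 11.98 against 11.13 to 11.67. On chromosome 10 tumours 17 and 20 stood apart, and on chromosome 16 tumours 12 and 17. On some other chromosomes 1 tumour stood apart. In tumour 14 the level of chromosome 19 was -0.55, with -0.09 as the next lowest, and all 5 members on that chromosome had their lowest value of the 32 tumours there. The core complex I genes Ndufv1, which binds NADH, and Ndufs8, an iron-sulfur subunit, were 9.98 and 11.47 in tumour 14 and at least 10.33 and 11.60 elsewhere. Ndufb8 was 10.52 (at least 10.93 elsewhere), Cox8a, the common isoform, 10.67 (at least 11.19), and Atp5md 10.12 (at least 10.44). The differences of the 5 genes from the mean of the other tumours ran from -0.86 to -0.52. For this tumour and those below, the share of the chromosome's other genes at such extremes or below the mean was not computed.

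In tumour 23 the level of chromosome 13 was -0.38, next to -0.09, and all 6 members there lay below the mean of the other tumours, with differences of -0.87 to -0.53. Sdha, the catalytic flavoprotein of complex II, was 10.09 (at least 10.27 elsewhere), and Uqcrfs1, the Rieske iron-sulfur protein of complex III, was 10.64 (at least 10.81). Uqcrb (12.73, at least 13.09 elsewhere) was also lowest there, as was Ndufaf2 (6.93), which was nearly as low in tumour 30. Ndufs4 and Cox7c were lower still in tumours 2 and 30. In tumour 1 the level of chromosome 6 was 0.27, with 0.03 next, and Ndufa4, Ndufa5, Ndufa9 and Ndufb2 all had their highest values there, 0.41 to 0.67 above the other tumours' mean. In tumour 7 the level of chromosome 5 was 0.35, with 0.11 next, and the 3 members there were 0.16 to 0.37 above the other tumours' mean. In tumour 10 the level of chromosome 17 was 0.36, with 0.04 next, and 4 of 6 members had their highest value. Sdhb, the iron-sulfur subunit of complex II, was 10.94 in tumour 28 and at least 11.33 elsewhere, and chromosome 4 was at its lowest level there (-0.28). The 6 members of chromosome 4 did not move together in tumour 28, with 3 below the other tumours' mean, a median difference of -0.03 and Ndufaf4 higher by 0.44. Subunits of one complex thus differed in where they were low. Sdha and Sdhb had an r of -0.03 over the 32 tumours and a rho of 0.33, which missed the threshold (two-sided permutation test of r, raw p = 0.867, adjusted p = 0.867), with r = 0.26 without tumours 23 and 30. The membrane anchors of complex II ran from 9.10 to 9.82 with a median of 9.48 for Sdhc and from 10.57 to 11.38 with a median of 11.15 for Sdhd.

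**Figure D4:**
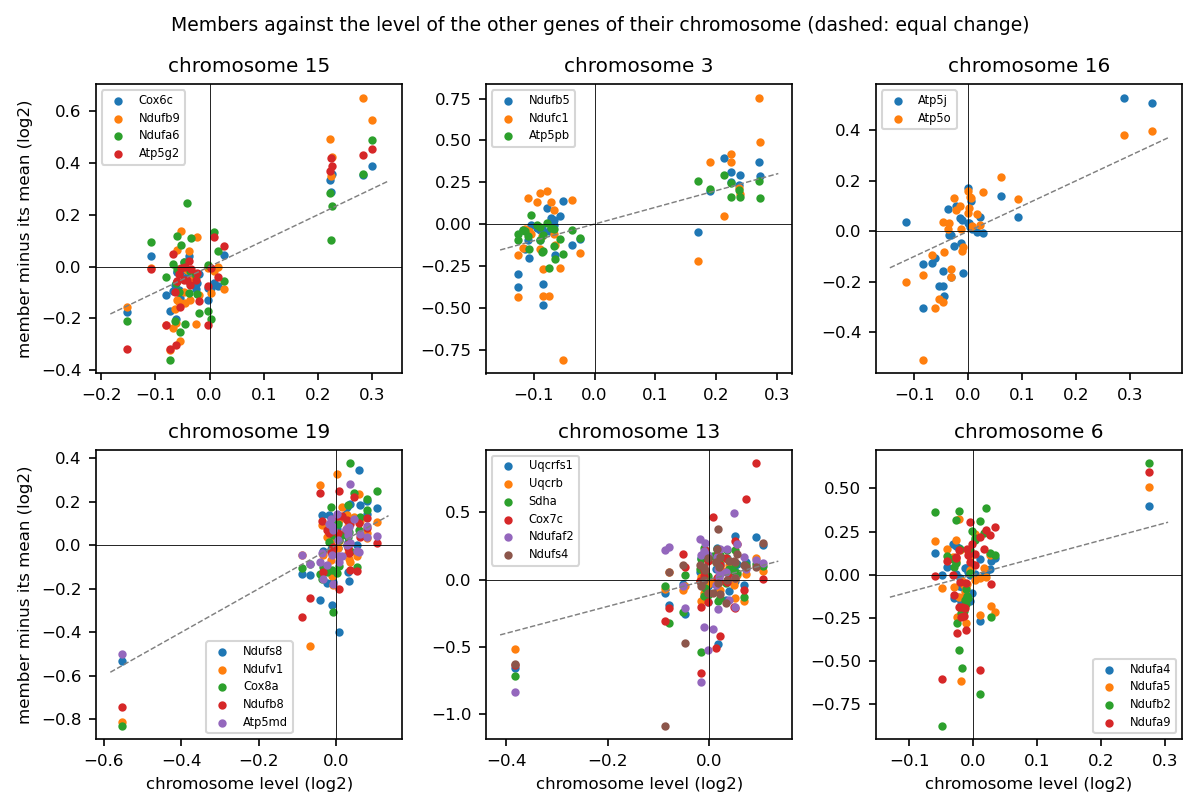
Members (value minus own mean, log2) against the level of the other genes of their chromosome (log2), 1 point per member and tumour, for 6 chromosomes. The dashed line marks equal change. Chromosomes 15 and 3 show separate sets of 5 and 9 tumours, chromosome 16 a pair (tumours 12 and 17), and chromosomes 19, 13 and 6 the single tumours 14, 23 and 1.

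Over all 20 chromosomes, an analysis added after the data were seen and adjusted over each gene's fit to its own chromosome, 50 of the 86 members rose with the level of their own chromosome, against 26.8% of the other genes. With the level of the next chromosome in number 8 of 86 rose, against 2.36%. The own chromosome gave the highest r of all 20 for 36 members (41.9%) and for 25.3% of other genes. All tested members of chromosomes 3, 5, 13, 15, 16, 18 and 19 were among the 50, and the members of chromosomes 1, 8 and X had none. The levels of chromosomes 1, 8 and X varied little (SD 0.03, 0.05 and 0.05), as did those of 9 and 11 (0.03 each), which had calls. Ndufb1 was counted here (adjusted p = 0.030, limma), with the same slope that did not pass above. Among the 50 the median SD was 0.19 before and 0.13 after the level was fitted. The slope per log2 unit of the level had a median of 1.35 over all 86 members, 2 of which were negative, and 0.97 over the other genes. Among the genes that were called it was 1.63 for the 50 members and higher for the other genes. Without the most extreme tumour of each chromosome 36 members rose, against 19.7% of others. All members of chromosomes 3, 15, 16 and 18 still rose there, but 2 of 3 on chromosome 5, 2 of 6 on 13 and 2 of 5 on 19. With a stricter filter at the 75th percentile, which keeps brighter genes, 56 of 82 members rose (68.3%), against 44.3% of others. Levels of different chromosomes shared a common part, and with levels centred in each tumour 28 members rose, against 16.8%.

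A minority of members rose with the Myc target genes and with proliferation, and the rest did not pass. The Myc target score was the mean standardised value of 21 genes, mostly of ribosome assembly and nucleotide synthesis. Of the 86 members 31 rose with it (background 20.8% of 11207 genes rising and 13.6% falling), and the members' median slope was 0.06 log2 units per SD of the score, against 0.02 over all genes. By class, 12 of 35 in complex I, 1 of 4 in complex II, 3 of 8 in complex III, 2 of 14 in complex IV, 7 of 17 in complex V and 6 of 8 assembly factors rose. None fell, also at an unadjusted p under 0.05 (limma), where 41 rose. The share of all genes at that unadjusted threshold was not computed. With arrays shifted by reference genes 43 members rose, and the split over all genes moved from 2336 rising and 1522 falling to 2793 and 1125. Without the 11 tumours with salivary markers 20 members rose, 16 of them among the 31, against 13.9% of all genes. Of the 5 tumours with the lowest score, 30, 25 and 15 had salivary markers and 24 and 2 the highest T cell means. The part of these cells was not tested beyond the values given.

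Ndufaf6, an assembly factor of complex I, had the largest slope (0.30 ± 0.03 SE, adjusted p = 3.5e-09, limma, n = 32). It was 7.79 to 8.41 in the 5 tumours with the lowest score (30, 24, 25, 2 and 15) and 8.86 to 9.08 in the 5 with the highest (7, 32, 22, 11 and 16). Ndufab1, the mitochondrial acyl carrier protein and a complex I subunit, was 11.24 to 11.65 and 11.71 to 11.84 in these tumours (slope 0.13 ± 0.02, adjusted p = 9.05e-06). Both genes separated the ends of the score, as did those that follow. All 5 were chosen by their fit to this score, so that the separation restates that fit. Uqcr11, a small subunit of complex III, was 11.21 to 11.41 and 11.59 to 12.01 (0.18 ± 0.03, adjusted p = 1.1e-05). Ndufaf1, which helps to assemble the membrane arm of complex I, was 8.30 to 8.72 and 9.02 to 9.29 (0.20 ± 0.03, adjusted p = 2.27e-05). Atp5g1, the c subunit gene known to respond to growth signals, was 10.61 to 10.90 and 11.13 to 11.32 (0.17 ± 0.03, adjusted p = 2.29e-05). These 5 calls held with each tumour left out in turn.

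The upstream sequences of 4 of these genes are shown because Myc binds the E-box CACGTG, and Ets family factors such as GABP (CCGGAAG) and the factor Nrf1 (core GCGCATGC) are known regulators of respiratory chain genes. Atp5g2 is added as a chromosome 15 gene with Nrf1 cores. Ndufa6, also on chromosome 15, had 1 such core in its 300 base promoter, and no promoter sequence was available for Cox6c and Ndufb9. Each is the 120 bases before the annotated start, 5′ to 3′ on the gene's strand, from RefSeq (GRCm38.p6), with motif matches in capitals.
Ndufab1, chr7:122101849-122101968, minus strand: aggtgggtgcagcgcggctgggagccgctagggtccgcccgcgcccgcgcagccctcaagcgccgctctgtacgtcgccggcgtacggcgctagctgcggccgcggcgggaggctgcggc
Uqcr11, chr10:80406822-80406941, minus strand: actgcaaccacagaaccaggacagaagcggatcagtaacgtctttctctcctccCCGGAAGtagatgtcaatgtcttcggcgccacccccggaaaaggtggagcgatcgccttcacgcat
Ndufaf1, chr2:119662835-119662954, minus strand: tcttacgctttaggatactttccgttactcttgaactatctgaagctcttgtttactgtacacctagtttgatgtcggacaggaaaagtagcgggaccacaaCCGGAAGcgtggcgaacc
Atp5g1, chr11:96075632-96075751, minus strand: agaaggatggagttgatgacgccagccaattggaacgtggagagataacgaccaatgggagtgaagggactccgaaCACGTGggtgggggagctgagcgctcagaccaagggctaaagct
Atp5g2, chr15:102671048-102671167, minus strand: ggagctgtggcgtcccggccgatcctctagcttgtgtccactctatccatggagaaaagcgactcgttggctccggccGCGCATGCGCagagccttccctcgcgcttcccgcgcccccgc
Uqcr11 and Ndufaf1 hold an Ets motif here, Atp5g1 an E-box, Atp5g2 overlapping Nrf1 cores on both strands, and Ndufab1 none of the 3 motifs. Of the 79 promoter windows of 300 bases for 74 matched members, 8.86% held the E-box, against 7.15% of 32851 windows of all genes. The Ets motif was in 24.1% against 8.86%, and the Nrf1 core in 13.9% against 2.71% (both strands searched). The windows of all genes cover 27025 genes, more than were tested here, and no set matched for expression was counted. A match is a description of the letters, and binding was not measured.

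On the proliferation score, built from 21 cell cycle genes, 32 members rose (background 18.6% rising and 10.8% falling), 24 of them also on the Myc target score. They were 13 of 35 in complex I, 2 of 4 in complex II, 3 of 8 in complex III, 2 of 14 in complex IV, 6 of 17 in complex V and 6 of 8 assembly factors. Ndufb2 was 9.74 to 10.66 in the 5 tumours with the lowest score (30, 24, 18, 2 and 9) and 10.48 to 11.26 in the 5 with the highest (31, 1, 5, 26 and 23), with a slope of 0.24 ± 0.04 (SE, adjusted p = 0.000109, limma). The ends of the score overlapped in this gene. Ndufa9, an accessory subunit of the matrix arm, did not overlap, at 10.91 to 11.40 and 11.62 to 12.11 (0.18 ± 0.03, adjusted p = 0.00015). Ndufaf1 rose by 0.19 ± 0.04 (adjusted p = 0.00034), Ndufb3 by 0.11 ± 0.02 (adjusted p = 0.000591) and Atp5g1 by 0.15 ± 0.03 per SD (adjusted p = 0.000658). Without the 11 tumours with salivary markers 3 members rose, Ndufa9, Ndufaf6 and Atp5h, a stalk subunit of ATP synthase. The calls over all genes fell there too, to 6.81% rising and 6.43% falling, so that the members' share was no longer above that of all genes.

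**Figure D5:**
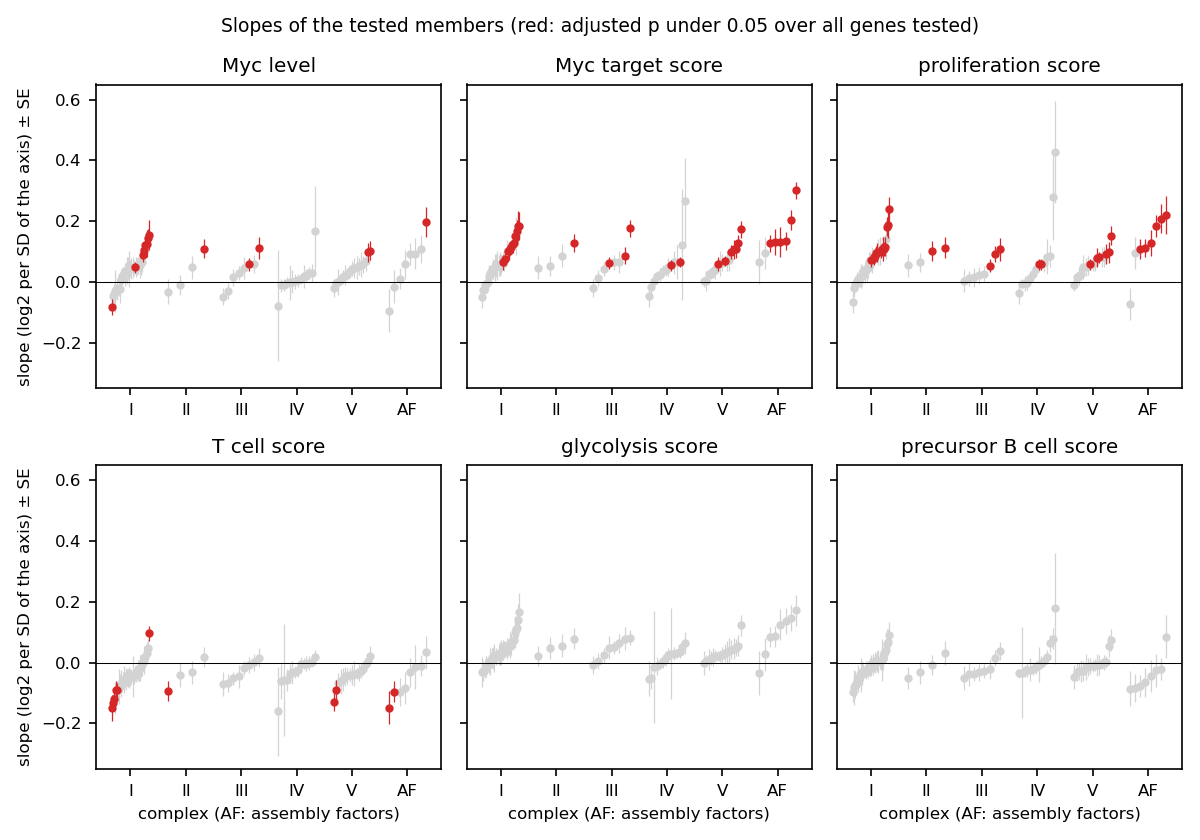
Slope of each tested member (log2 per SD of the axis, ± SE, 32 tumours) on 6 axes, by complex, with assembly factors as AF. Red marks an adjusted p under 0.05 over all genes tested. Of 86 members, 31 rise on the Myc target score (20.8% of all genes) and 32 on the proliferation score (18.6%). On the T cell score 10 fall (12.5% of all genes), and none pass on the glycolysis and precursor B cell scores.

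The level of Myc itself (9.81 to 12.30, median 11.34) was followed by fewer members. Of the 86 members 13 rose and 1 fell with it (background 10.4% rising and 9.67% falling), and 8 of the 13 also rose with the Myc target score. Ndufa7 of complex I was 10.92 to 11.26 in the 5 tumours with the least Myc (2, 9, 24, 6 and 25) and 11.43 to 11.67 in the 5 with the most (slope 0.11 ± 0.02 SE, adjusted p = 0.00101, limma). Ndufb5 was 11.10 to 11.55 and 11.73 to 11.96 (0.14 ± 0.03, adjusted p = 0.00179). The ends were apart in both. Ndufa10 (0.12 ± 0.03, adjusted p = 0.00188), Ndufaf6 (0.20 ± 0.05, adjusted p = 0.00497) and Ndufb6 (0.09 ± 0.02, adjusted p = 0.00913) rose, and Ndufa13, a complex I subunit also known as Grim19, fell by 0.08 on the log2 scale (SE 0.03, adjusted p = 0.0217), a call that was lost without tumour 24. The second probe set of Ndufa10 did not follow the first, and with probe sets averaged it did not pass (adjusted p = 0.156). Without tumours 2 and 24, which had the highest T cell scores and little Myc, Ndufa7 and Ndufb5 were the 2 members left, with 2.04% of all genes rising. With the mean score of other cells (T cells, myeloid cells and stroma) as a covariate 2 were left, Ndufa7 and Ndufa10, with 2.28% of all genes rising. Leaving out tumour 9, 24 or 2 alone gave 7, 8 and 9 calls. Without tumour 9, 7.61% of all genes rose and 8.35% fell. Without tumour 2, 610 genes rose and 552 fell, in place of 1170 and 1086.

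On the T cell score 10 of 86 members fell and 1 rose, shares no higher than those of all genes (background 12.5% falling and 10.5% rising). Ndufa7 was 11.35 to 11.67 in the 5 tumours with the lowest score (31, 27, 7, 29 and 11) and 10.92 to 11.26 in the 5 with the highest (24, 2, 9, 21 and 4), without overlap (slope -0.09 ± 0.02 SE, adjusted p = 0.00663, limma). Ndufa10 (-0.13 ± 0.03, adjusted p = 0.000286), Atp5mpl (-0.13 ± 0.03, adjusted p = 0.00157), Ndufs4 (-0.15 ± 0.04, adjusted p = 0.0109) and Ndufb5 (-0.12 ± 0.03, adjusted p = 0.0112) fell and Ndufa13 rose (0.10 ± 0.02, adjusted p = 0.00353). Without tumours 2 and 24, 3 members passed, with 1.45% of all genes falling and 1.84% rising. Leaving out tumour 2 or 24 alone left 4, tumour 7 or 9 left 6, and tumour 1, 11 or 21 left 7. Without tumour 2 alone, 783 of all genes rose and 720 fell, in place of 1181 and 1403. The calls of Atp5mpl and Ndufa13 were lost without tumour 24, and those of Ndufs4 and Ndufb5 without tumour 2.

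On the glycolysis score no member passed (limma, background 1.05% rising and 0.874% falling). At an unadjusted p under 0.05 (limma) there were 20 members, and all 20 were positive. For this and the later unadjusted counts the share of all genes was not computed. Without tumours 2 and 24, 15 members rose, against 6.65% of all genes. Leaving out tumour 24, 17, 2 or 6 alone gave 7, 6, 5 and 5 members, with 374, 215, 260 and 289 of all genes rising in place of 118. Tumour 18 or 28 gave 1 member. With arrays shifted by reference genes 6 rose, and the split over all genes moved from 118 rising and 98 falling to 443 and 29. On the precursor B cell score none passed either (1.51% and 0.892%), with 7 at an unadjusted p under 0.05, and on the stroma score none (3.48% and 0.829%), with 8. Leaving out tumour 6 gave 1 call on the precursor score, with 1.19% of all genes rising and 0.74% falling. Leaving out tumour 32 gave 2 on the stroma score, with 3.69% rising and 1.19% falling. On the 3' minus 5' difference, a measure of RNA quality from the Gapdh and Actb control probe sets, Atp5b, the catalytic beta subunit of ATP synthase, fell by 0.12 on the log2 scale per SD (SE 0.03, adjusted p = 0.0311; background 0.321% rising and 0.837% falling). At an unadjusted p under 0.05, 17 members fell and 5 rose. It was lowest in tumour 9 (12.15), which had the largest difference, with a median of 12.67, and leaving out tumour 9, 19 or 21 ended the call. Leaving out tumour 24 gave 3 calls, with 0.579% of all genes rising and 1.43% falling, and tumour 2, 6 or 20 gave 2.

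Other mitochondrial genes, from lists set by function, rose on the Myc target score as well. Of 16 tested genes of protein import and chaperones 14 rose, with a median slope of 0.19, led by Timm8a1 (0.29 ± 0.03 SE, adjusted p = 1.35e-08, limma), Clpp, a matrix protease (0.23 ± 0.03, adjusted p = 1.44e-07), and Timm10 (0.22 ± 0.03, adjusted p = 1.25e-06). Of 16 genes of the citric acid cycle and pyruvate dehydrogenase 10 rose, among them Dlat (0.21 ± 0.03, adjusted p = 2.35e-06), fumarase Fh1 (0.22 ± 0.04, adjusted p = 0.000118) and Mdh2 (0.11 ± 0.02, adjusted p = 0.00104). Of 29 other assembly factors 15 rose, with Atpaf2, Sco2 and Ecsit in front (0.19 ± 0.03, 0.28 ± 0.05 and 0.23 ± 0.04). Of 18 electron carrier and transport genes 9 rose and 1 fell. Coq4 and Pdss2, of ubiquinone synthesis, rose by 0.36 ± 0.05 and 0.21 ± 0.03, and Coq5 by 0.17 ± 0.03, while Coq10b fell by 0.24. Of 14 regulators of mitochondrial biogenesis 9 rose, with the coactivator Pprc1 (0.22 ± 0.03, adjusted p = 1.14e-06), the helicase Twnk (0.27 ± 0.05) and the DNA polymerase Polg (0.24 ± 0.06) in front. Of 26 genes listed for mitochondrial DNA 1 was measured, ND5, and it fell by 0.12 per SD (SE 0.05, adjusted p = 0.0483). The background is the same 20.8% rising and 13.6% falling.

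Of the 16 relations computed, 3 passed, 2 of them those of the fat score above, and 5 passed without tumour 6 or without tumour 19. The third was that of Tfam, the factor that packs and transcribes mitochondrial DNA, with Myc (r = 0.50, raw p = 0.00392, adjusted p = 0.0209, permutation test, n = 32, rho = 0.58), and r was 0.58 without tumours 16 and 17, whose Tfam values lay farthest out. It did not pass with probe sets averaged (r = 0.25, adjusted p = 0.301), with arrays quantile normalized again (r = 0.44, adjusted p = 0.058), without the salivary-marker tumours (r = 0.48, adjusted p = 0.114) or without the muscle-marker tumours (r = 0.48, adjusted p = 0.0852). Ppargc1b, a coactivator of mitochondrial biogenesis, did not pass with Myc (r = 0.41, raw p = 0.0237, adjusted p = 0.0758, rho = 0.52 with adjusted p = 0.0151). Ndufa4l2, a hypoxia-inducible relative of Ndufa4 whose product belongs with complex IV, did not pass with the stroma score (r = 0.44, raw p = 0.0129, adjusted p = 0.0518) and passed without tumours 2 and 24 (r = 0.52, adjusted p = 0.0282). It did not pass with the hypoxia score (r = -0.10, adjusted p = 0.867) or with Ndufa4 (r = 0.10, adjusted p = 0.867). Cox4i2 passed with neither the hypoxia score (r = -0.04, adjusted p = 0.867) nor the stroma score (r = -0.24, adjusted p = 0.398). The alpha and beta subunit genes of ATP synthase, Atp5a1 and Atp5b, had an r of 0.13 (adjusted p = 0.867). Atp5a1 was lowest in tumour 8 (11.55) and highest in tumour 19 (13.03), with a median of 12.50. Atp5g1 (r = 0.25, adjusted p = 0.398) and the cytochrome c gene Cycs (r = 0.05, adjusted p = 0.867) did not pass with Myc.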

How the data were processed

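Total RNA from each of the 32 tumours was labelled and hybridised to an Affymetrix Mouse430_2 array. The deposited values are on the log2 scale. The submitters' processing notes name RMA and the affy package. RMA equalises the arrays' distributions and can hide shifts shared by most genes. Array medians lay between 5.72 and 5.80, 0 pairs of arrays were identical and 0 columns lacked a sample. The precision rests on the number of arrays, 1 per tumour. Scanner files were not used here.

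Of 45101 probe sets 34958 had 1 symbol in the platform annotation and 932 had several. Genes were kept at a probe set mean of at least 5.78, the median of all means. RefSeq (GRCm38.p6) gave chromosomes and promoters. Slopes came from limma 3.58.1 in R 4.3.3 (lmFit, eBayes, Benjamini-Hochberg over all tested genes, threshold 0.05), leaving out an axis's own genes. Relations used two-sided permutation tests of 100000 resamples (scipy 1.17.1, Python 3.11.15). The members, lists and chromosomes 3, 12 and 15 were chosen with earlier results of these data known. Genes named are the 10 largest and 5 smallest SDs, and up to 5 rising and 5 falling members per axis. Those of the relations, of complex II and of chromosomes 3, 12 and 15, extreme pairs, and up to 3 genes per other list are also named. Members at single-tumour extremes and those of chromosome 18 were chosen after their values were seen. On simulated data limma recovered 9 to 22% of slopes of 0.5 SD and 90 to 97% of slopes of 1 SD over the 8 axes. Alternatives are given at the end.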

Additional observations from a re-analysis of the deposited data

How the results depend on the processing

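The median SD (0.15 to 0.18) and the median pairwise r of the members (0.19 to 0.29) stayed near the values given under every alternative run for them, and the counts on chromosomes 3 and 15 and on the Myc target and proliferation scores kept within 1.5 times except as follows; where a count moved, the cause was not tested. Leaving out 1 tumour at a time gave ranges of 7 to 18 calls for the Myc level, 28 to 36 for the Myc target score, 26 to 36 for proliferation, 0 to 7 for glycolysis, 0 to 1 for the precursor score, 4 to 13 for the T cell score, 0 to 2 for stroma, 0 to 3 for the 3' minus 5' difference, 46 to 54 for the own chromosome, 1 to 2 on chromosome 12, 20 to 43 members above the controls' SD, and 2 to 5 relations. In fits with the lowest and highest of these counts, 7.61% and 13.8% of all genes rose with the Myc level. It was 0.598% and 3.34% rising for glycolysis, and 6.42% and 12.4% falling for the T cell score. Without tumours 2 and 24 there were 2 calls for the Myc level (2.04% of all genes rising and 1.54% falling). There were 15 for glycolysis (6.65% and 3.45%) and 2 for the precursor score (3.81% and 4.19%). T cells had 3 (1.84% and 1.45%) and the 3' minus 5' difference 6 (0.973% and 1.96%). Without the 11 tumours with salivary markers there were 7 calls for the Myc level (11.7% of all genes rising and 11.3% falling). There were 20 for the Myc target score (13.9% and 11.5%) and 3 for proliferation (6.81% and 6.43%). The 3' minus 5' difference had 0 (0.00892% and 0%) and chromosome 12 had 0. In that setting 41 members lay above the controls' SD and 1 relation passed. Without the 5 muscle-marker tumours, added after the data were seen, there were 7 T cell calls (10.6% rising and 12.1% falling) and 1 relation. For the Myc level the covariate of other cells gave 2 calls (2.28% of all genes rising and 2.14% falling). It gave 2 for glycolysis (1.69% and 2.13%), and the 3' minus 5' covariate gave 6 for T cells (10.6% and 11.3%). Ranks of the axis gave 4 calls for the Myc level (5.26% of all genes rising and 5.21% falling). They gave 4 for the T cell score (4.3% and 3.77%) and 0 for the 3' minus 5' difference (0.00891% and 0.0178%). Averaged probe sets and the stricter filter gave 1 glycolysis call each, reference genes 6, and quantile normalization again 6 T cell calls and 2 for the 3' minus 5' difference. An SD from the median absolute deviation left 51 members above the controls, and centred chromosome levels 28 own-chromosome calls. The r of Cox7a1 with fat changed sign without tumours 13 and 31 (-0.00149). The T cell axis was not run with the stricter filter, which left too few of its genes. No paired analysis was possible because there is 1 group. Dim probe sets, such as those of Cox7a1 and Cox6b2, lie where array background limits the measured differences.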
